A study of Mus musculus with 8 samples.

Results

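Genes of DNA replication and of cell division were followed in belly skin of mice that carry a transgene for human hurpin and of wildtype mice. The set held 42 gene symbols, 16 of S phase and 26 of mitosis. Members were the probe sets annotated to exactly 1 of these symbols, and each gene was represented by its most abundant probe set over all animals. No probe set was named Ccnb1 by the annotation used, so Ccnb1 was not analysed here. The other 41 genes were measured, out of 13559 gene symbols tested, and all 41 passed the filter on low values, a mean log2 level of at least 6.45. Their symbols matched 91 probe sets, of which 72 passed.

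Total RNA of skin from the belly was hybridised to oligonucleotide arrays from 7 animals, all 8 months old. Hurpin, also called SERPINB13, is an inhibitor of the cysteine protease cathepsin L, and the labels give neither the promoter of the transgene nor the strain. The transgenic group held females 7 and 84 and males 11 and 17. The wildtype group, with no transgene, held males 26 and 28 and female 29. Wildtype 29 was measured on 2 arrays, which were averaged and counted as 1 animal. The sample titles do not say whether both arrays had the same RNA.

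A cell that is about to divide first loads the Mcm helicase on its origins, raises its supply of nucleotides and copies its DNA in S phase. It then enters mitosis under cyclins A and B with their kinase Cdk1, builds a spindle, holds at a checkpoint until the chromosomes are attached, and separates them once Cdc20 activates the anaphase-promoting complex. In skin, dividing cells lie in the basal layer of the epidermis and, in far greater density, in the matrix of growing hair follicles, whose daughter cells form the hair shaft and the inner root sheath. In resting follicles the matrix is absent. The E2F factors control many S phase promoters, and the CHR element, often with CCAAT boxes nearby, is known from promoters of genes that peak in mitosis.

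The promoter windows below are shown because the S phase and mitosis genes differed in the elements they hold, a property that played no part in choosing the members. Each window runs from 250 bases before to 50 after the RefSeq start of the gene on GRCm38.p6, 5′ to 3′ along the gene. Capitals mark TTTGAA (the CHR element), CCAAT and, in Mcm5 alone of the 4, TTTNNCGC (an E2F site), each searched on both strands.
Cdc20 (chr4:118437294-118437593, minus strand): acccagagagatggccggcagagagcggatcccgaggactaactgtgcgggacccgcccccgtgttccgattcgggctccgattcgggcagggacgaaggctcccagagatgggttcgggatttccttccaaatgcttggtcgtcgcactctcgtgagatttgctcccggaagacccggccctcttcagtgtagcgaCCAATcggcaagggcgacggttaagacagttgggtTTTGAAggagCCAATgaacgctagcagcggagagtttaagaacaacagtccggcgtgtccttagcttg
Ccnb2 (chr9:70421505-70421804, minus strand): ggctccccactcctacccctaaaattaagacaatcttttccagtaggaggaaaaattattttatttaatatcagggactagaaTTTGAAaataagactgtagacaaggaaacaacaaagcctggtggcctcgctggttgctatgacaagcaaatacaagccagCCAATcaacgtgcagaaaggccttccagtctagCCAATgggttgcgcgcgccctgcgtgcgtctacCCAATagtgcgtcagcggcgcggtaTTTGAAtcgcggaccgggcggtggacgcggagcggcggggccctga
Plk1 (chr7:122159185-122159484, plus strand): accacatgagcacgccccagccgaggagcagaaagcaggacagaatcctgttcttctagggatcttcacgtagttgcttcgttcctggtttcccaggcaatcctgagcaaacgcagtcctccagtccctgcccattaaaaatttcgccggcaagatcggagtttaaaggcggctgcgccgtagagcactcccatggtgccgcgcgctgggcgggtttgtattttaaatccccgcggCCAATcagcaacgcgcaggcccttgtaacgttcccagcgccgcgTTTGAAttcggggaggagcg
Mcm5 (chr8:75109259-75109558, plus strand): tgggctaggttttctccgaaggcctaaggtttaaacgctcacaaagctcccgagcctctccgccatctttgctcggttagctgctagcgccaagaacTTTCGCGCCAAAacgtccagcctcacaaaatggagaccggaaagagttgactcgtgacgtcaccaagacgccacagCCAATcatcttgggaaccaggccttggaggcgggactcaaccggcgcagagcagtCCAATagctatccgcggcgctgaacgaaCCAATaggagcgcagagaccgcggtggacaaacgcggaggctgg
The CHR letters begin 18 bases before the start in Cdc20, 167 bases before and 5 after it in Ccnb2, and 31 bases after it in Plk1. In Mcm5 the E2F letters lie on both strands and overlap, beginning 153 and 149 bases before the start. The windows of Pcna and Rrm2 held CCAAT and none of the other motifs.

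Windows were found for 33 of the 41 genes, 35 windows in all. None was matched for Mcm4, Gmnn, Ccne2, Ccna2, Foxm1, Aurkb, Kif20a and Tpx2. TTTGAA was present in 15 of 20 mitosis genes, among them Cdk1, Top2a, Mki67, Ube2c, Ndc80 and Kif11, and in 1 of 13 S phase genes, Mcm2. By window these shares were 76.2% and 7.14%, against 17.9% of all 32851 windows in the RefSeq table. The E2F letters TTTNNCGC had the opposite spread, in 7 of 13 S phase genes (50% of windows) and 1 of 20 mitosis genes, Cdk1 (4.76%), against 5.17% of all windows. A second E2F spelling, GGCGGGAA, occurred in Mcm3 and Rrm1 (14.3% of S phase windows), in 0 mitosis windows and in 2.19% of all. CCAAT did not separate the groups as sharply, with 16 of 20 mitosis genes (81% of windows) and 8 of 13 S phase genes (64.3%), against 37.4% of all windows. A match is a description of the letters and not of a bound site, and a window without a match says only that the letters are not in it.

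Some facts of the whole series bear on every value below. Levels are log2 of the array intensity plus 21.8, so the lowest possible value is 4.45. Each array had been scaled by the authors to the same trimmed mean, and summed signal lay between 34785081 and 37857733. Epidermal markers were high: the mean log2 level of 8 basal keratinocyte genes lay between 12.38 and 12.57. That of 5 suprabasal genes varied more, between 13.06 and 13.73, and was highest in transgenic 17 and wildtype 26. Hair keratins differed far more between animals than between groups. The mean log2 level of 12 hair shaft keratins was 6.80 in wildtype 26 and 9.06 in transgenic 17, against 11.66 to 12.42 in transgenic 11, 84 and 7 and 13.04 and 13.20 in wildtype 28 and 29. Target length differed too, by the signal of the Gapdh control at its 3′ end over that at its 5′ end. This Gapdh ratio was 13.8, 1.45, 4.68 and 17.2 in transgenic 7, 11, 17 and 84, and 1.03 to 1.14 in wildtype animals. The 2 arrays averaged for wildtype 29 gave 1.41 and 0.927, the first close to transgenic 11. An exact permutation test of the log2 Gapdh ratio between the groups gave p = 0.0571 (2-sided, 35 arrangements of the 7 animals). In whole skin, fewer cells of a type and less RNA per cell cannot be told apart.

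Hurpin-transgenic and wildtype skin did not differ detectably in these genes. For the 16 S phase genes the mean log2 level was 9.80 ± 0.53 in the 4 transgenic animals and 9.76 ± 0.61 in the 3 wildtype animals (mean ± SD). For the 25 mitosis genes it was 9.23 ± 0.68 and 9.29 ± 0.93. By limma with Benjamini-Hochberg adjustment over 27022 probe sets, 0 of 41 genes were called at an adjusted p under 0.05, where 0.0148% of all probe sets were. At an unadjusted p under 0.05 the count was also 0 of 41, against 11.7% of all probe sets, and in 0 of 41 did the groups fail to overlap, against 11.3%. Transgenic minus wildtype, the log2 difference was above 0 in 17 genes and below 0 in 24. Its median was 0.05 over the S phase genes and -0.05 over the mitosis genes, beside 0.05 over all 13559 genes.

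This does not show that the groups are alike. The 95% interval of the difference lay within 1 log2 unit of 0 for 12 of 41 genes, 8 of S phase and 4 of mitosis. Its width to either side ran from 0.525 for Pcna to 1.59 for Ndc80. The interaction of group and sex was called for 0 of 41 genes by limma, as for 0% of all probe sets, and reached an unadjusted p under 0.05 for 0 of 41, against 2.86% of all probe sets. The wildtype group had 1 female, so that test rested on single animals.

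The sign of the differences rested on single animals as well. Without wildtype 26, 39 of 41 differences were below 0, with medians of -0.23 in S phase and -0.54 in mitosis genes. Leaving out transgenic 11 or 84 put 35 and 33 below 0. Leaving out transgenic 7 or 17 left 9 and 7 below 0, and leaving out wildtype 28 or 29 left 13 and 7. When the model also held the log2 Gapdh ratio, 41 of 41 were above 0, with medians of 0.30 and 0.27. Every transgenic animal had a higher Gapdh ratio than every wildtype animal, so that fit separates group from ratio poorly. In each of these fits limma called 0 of the 41 genes.

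What separated the animals was an order shared by most members. Wildtype 26 and transgenic 17, the animals with the least hair keratin, were both below the other 5 animals in 33 of 41 genes, which was true of 10.5% of all probe sets and of 13.1% of genes by their most abundant probe set. The 33 comprised 10 of 16 S phase and 23 of 25 mitosis genes. Among the 31 other probe sets of the members that passed the filter, fewer had both animals lowest, 12 of 31, so the count holds for the most abundant probe set of each gene. These animals were singled out after their hair keratins had been seen, and they belong to opposite groups. No correlation with the hair keratin level is given, because these animals lie apart from the other 5 in that level, and from each other. With the hair keratin level added to the model, 29 of 41 group differences were below 0 and limma called 0 of 41. The median range over the 7 animals was 1.49 log2 units for S phase and 1.86 for mitosis genes, against 0.85 for all genes. Between the 2 arrays of wildtype 29 the median difference of the members was 0.147, with a largest value of 0.939 in Mcm2.

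**Figure D1:**
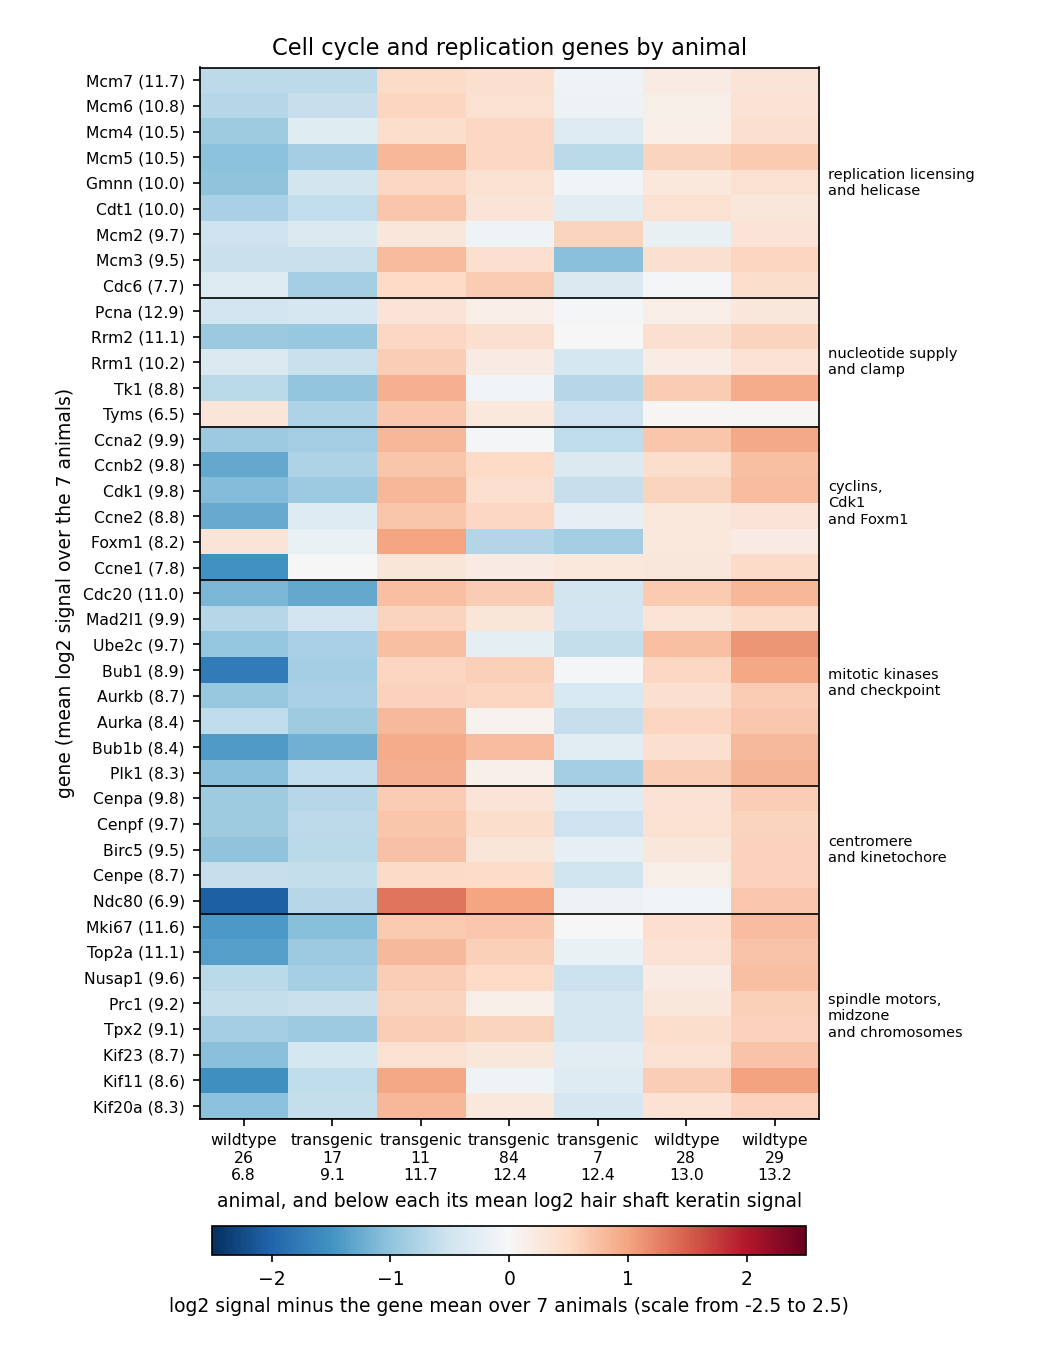
Level of the 41 genes in each of the 7 animals, shown as log2 intensity minus the gene's mean over animals, with the animals in order of hair shaft keratin level and the genes grouped by role. Wildtype 26 and transgenic 17 are below 0 in nearly every gene, and transgenic 11 and wildtype 29 above it.

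The licensing and helicase genes are given first. Values are log2 intensities, in the order transgenic 7, 11, 17 and 84, then wildtype 26, 28 and 29 throughout. Mcm2 to Mcm7 form the ring that unwinds DNA at the replication fork. The levels of Mcm7 were 11.61, 12.21, 11.07 and 12.13 in the transgenic and 11.07, 11.92 and 12.05 in the wildtype animals, a difference of 0.07 (95% interval -0.66 to 0.81). For Mcm6 they were 10.69, 11.37, 10.25 and 11.20 against 10.12, 10.98 and 11.19, a difference of 0.12 (interval -0.63 to 0.87). In both genes the lowest value of each group came from the animal with the least hair keratin, and the groups overlapped. Mcm5 read 9.78, 11.28, 9.61 and 10.98 against 9.43, 11.01 and 11.12, with a difference of -0.10 (interval -1.29 to 1.09). For Mcm4 the values were 10.18, 10.96, 10.20 and 11.04 against 9.62, 10.69 and 10.92, so that transgenic 7 and 17 were nearly level and wildtype 26 was lowest.

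The order of the animals in Mcm2 and Mcm3, among other genes, depended on the probe set. The most abundant one of Mcm2 gave 10.28, 10.00, 9.36 and 9.62 against 9.20, 9.53 and 10.04, with transgenic 7 highest and a difference of 0.22 (interval -0.39 to 0.84). Its other probe set gave 7.95, 9.72, 8.21 and 8.53 against 8.33, 9.37 and 9.75, with transgenic 7 lowest and a difference of -0.55. Transgenic 7 thus stood at the top of the order by 1 probe set and at the bottom by the other. Of 22 members with over 1 probe set above the filter, 6 had differences of both signs.

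Mcm3 gave 8.48, 10.33, 8.97 and 9.95 against 8.98, 9.93 and 10.06, a difference of -0.22 (interval -1.27 to 0.82), and transgenic 7 was lowest. The least abundant of its 5 probe sets gave 4.96, 7.61, 5.01 and 4.83 against 6.58, 8.11 and 8.17, a difference of -2.02. Among 31 further probe sets of the members it was the 1 with an unadjusted p under 0.05 by limma (adjusted p = 0.364), and 0 of 31 were called after adjustment. Transgenic 7, 17 and 84, which lay close to the floor of 4.45 there, were the animals with the 3 highest Gapdh ratios, and transgenic 11 lay among the wildtype animals. In a second probe set of Rrm1 the same 3 animals were lowest, with 8.44, 10.05, 8.37 and 8.37 against 9.16, 10.01 and 10.25 (difference -1.002, limma adjusted p = 0.431). The part of target length in these values was not tested.

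Cdt1 and Cdc6 load the Mcm ring, and geminin (Gmnn) holds Cdt1 back. Cdt1 stood at 9.70, 10.64, 9.35 and 10.28 against 9.15, 10.35 and 10.24, a difference of 0.08 (interval -0.77 to 0.93). Gmnn stood at 9.88, 10.47, 9.50 and 10.35 against 8.95, 10.22 and 10.34, a difference of 0.21 (interval -0.62 to 1.05). In both, wildtype 26 was lowest and transgenic 17 next by these probe sets, though a second Cdt1 probe set put transgenic 7 next. Cdc6, at 7.33, 8.18, 6.84 and 8.32 against 7.35, 7.66 and 8.13, departed from that order, since transgenic 7 lay just under wildtype 26.

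Next come the sliding clamp and the enzymes of nucleotide supply. Pcna, the clamp that holds polymerases on DNA, had the narrowest range of all members, 0.80. Its levels were 12.88, 13.22, 12.48 and 13.07 against 12.42, 13.07 and 13.18, a difference of 0.02 (interval -0.50 to 0.55). Rrm2, the regulated subunit of ribonucleotide reductase, gave 11.08, 11.61, 10.14 and 11.50 against 10.18, 11.50 and 11.66, a difference of -0.03 (interval -1.02 to 0.97). Wildtype 26 and transgenic 17 were almost equal in Rrm2 by this probe set, and transgenic 7 was the next above them. Of the 3 Rrm2 probe sets above the filter, a second also had that pair lowest. The third gave 8.28, 9.46, 7.76 and 8.39 against 8.57, 9.59 and 9.72, with transgenic 7, 17 and 84 lowest (difference -0.82).

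The remaining genes of nucleotide supply did not keep that order. Rrm1, the large subunit, gave 9.78, 10.85, 9.67 and 10.43 against 9.86, 10.40 and 10.59, a difference of -0.10 (interval -0.81 to 0.60). Tk1, a salvage enzyme whose protein is degraded at the end of mitosis, gave 8.09, 9.68, 7.81 and 8.74 against 8.12, 9.43 and 9.73. Its difference of -0.52 (interval -1.67 to 0.63, limma adjusted p = 0.710) was the furthest below 0 among the S phase genes, yet the groups overlapped. Tyms, which makes thymidylate, passed the filter narrowly with 6.03, 7.21, 5.78 and 6.81 against 6.86, 6.58 and 6.57. It was the one S phase gene in which wildtype 26 was not below the mean of the other wildtype animals, and its other 3 probe sets were below the filter.

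Ccne1 and Ccne2 encode E cyclins, which start S phase with Cdk2. Ccne1 gave 8.07, 8.12, 7.79 and 8.02 against 6.30, 8.09 and 8.29, so 6 animals lay within a narrow band and wildtype 26 alone stood below it. Its other probe set gave 7.20, 8.45, 7.10 and 7.71 against 7.23, 7.28 and 7.60, where transgenic 17 was lowest and wildtype 26 did not stand apart. The difference of 0.44 (interval -0.55 to 1.44, limma adjusted p = 0.716) stood beside an SD of 1.10 in the wildtype and 0.14 in the transgenic animals. Ccne2 gave 8.57, 9.48, 8.43 and 9.30 against 7.52, 9.03 and 9.09, a difference of 0.39 (interval -0.57 to 1.36, limma adjusted p = 0.740).

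The mitosis genes had the wider ranges. Cdk1, the kinase that drives mitosis, gave 9.20, 10.61, 8.85 and 10.19 against 8.70, 10.32 and 10.53, a difference of -0.14 (interval -1.35 to 1.08). Ccna2 and Ccnb2 encode its cyclin partners. Ccna2 gave 9.24, 10.70, 9.005 and 9.82 against 8.97, 10.57 and 10.83, a difference of -0.43 (interval -1.61 to 0.74). Ccnb2 gave 9.43, 10.48, 9.02 and 10.28 against 8.51, 10.23 and 10.54, a difference of 0.04 (interval -1.14 to 1.23). In all 3, wildtype 26 was lowest, transgenic 17 next and transgenic 7 the next above them.

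Foxm1, a transcription factor that drives many G2 and mitosis genes, was outside the order of most members by its most abundant probe set. Its levels were 7.33, 9.19, 8.03 and 7.47 against 8.52, 8.47 and 8.42. The 3 wildtype animals lay close together (SD 0.05) by this probe set, wildtype 26 included, and transgenic 7 and 84 were lowest. Its other probe set above the filter gave 7.52, 8.14, 8.02 and 7.64 against 7.89, 8.41 and 7.98. Transgenic 7 and 84 were again lowest there, and wildtype 26 was lowest of the wildtype animals. Below the filter, 1 probe set gave 4.75, 7.11, 4.78 and 5.21 against 5.49, 6.57 and 6.63. Another there lay between 4.60 and 5.54. The difference of the most abundant probe set was -0.46 (interval -1.39 to 0.47, limma adjusted p = 0.679). Without transgenic 7 and 84, whose Gapdh ratios were highest, it was 0.14.

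Kinases and the checkpoint followed. Plk1, a kinase of mitotic entry, gave 7.42, 9.18, 7.66 and 8.40 against 7.22, 8.89 and 9.12, a difference of -0.25 (interval -1.48 to 0.98). Bub1, a checkpoint kinase at the kinetochore, gave 8.82, 9.39, 8.00 and 9.45 against 7.11, 9.36 and 9.83, a range of 2.72. Cdc20, the activator of the anaphase-promoting complex whose promoter is printed above, gave 10.59, 11.80, 9.76 and 11.69 against 9.90, 11.71 and 11.89, a difference of -0.20 (interval -1.57 to 1.16). By these probe sets the lowest Bub1 and Cdc20 were those of wildtype 26 and transgenic 17, and in Plk1 transgenic 7 came between them. A second Bub1 probe set above the filter gave 6.65, 7.54, 6.68 and 7.23 against 5.39, 6.16 and 6.97. There wildtype 26 and 28 were lowest (difference 0.85, limma adjusted p = 0.461).

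Ube2c, the ubiquitin-conjugating enzyme of that complex, gave 9.10, 10.44, 8.87 and 9.45 against 8.72, 10.43 and 10.78. Its difference of -0.52 (interval -1.71 to 0.68, limma adjusted p = 0.724) was the furthest below 0 among the mitosis genes, with overlapping groups. Transgenic 17 and wildtype 26 were lowest.

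Aurora A (Aurka), a kinase of the spindle poles, gave 7.82, 9.19, 7.51 and 8.47 against 7.76, 8.93 and 9.06, a difference of -0.34. Aurora B (Aurkb), which corrects faulty attachments, gave 8.28, 9.24, 7.86 and 9.20 against 7.72, 9.08 and 9.29, a difference of -0.05. In Aurka, transgenic 7 and wildtype 26 were almost equal. The checkpoint genes Bub1b and Mad2l1 kept the same lowest pair by their most abundant probe sets. Bub1b gave 8.11, 9.32, 7.19 and 9.16 against 6.97, 8.79 and 9.20, a difference of 0.12. Its other probe set above the filter gave 7.80, 9.18, 7.83 and 8.29 against 7.54, 9.05 and 8.99. There transgenic 7 lay just under transgenic 17, and the difference was -0.25. Mad2l1 gave 9.42, 10.46, 9.42 and 10.21 against 9.19, 10.25 and 10.38, a difference of -0.06, with transgenic 7 and 17 equal to 2 decimals.

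At the centromere and kinetochore, Birc5 (survivin, of the chromosomal passenger complex) gave 9.28, 10.22, 8.81 and 9.78 against 8.47, 9.78 and 10.07, a difference of 0.08 (interval -0.90 to 1.07). Ndc80, which binds kinetochores to microtubules, had the widest range of all members, 3.37. Its levels were 6.76, 8.25, 6.19 and 7.89 against 4.87, 6.83 and 7.57, so that wildtype 26 lay near the floor. The difference of 0.84 (interval -0.74 to 2.43, limma adjusted p = 0.660) had the smallest p of the 41 genes by their most abundant probe sets. Without wildtype 26 the Ndc80 difference was 0.07.

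Cenpa, the histone variant of the centromere, gave 9.45, 10.39, 9.04 and 10.08 against 8.87, 10.12 and 10.37, a difference of -0.05. Cenpe, a kinetochore motor, gave 8.16, 9.15, 8.07 and 9.12 against 8.07, 8.81 and 9.24, a difference of -0.08, and transgenic 7 lay close to the lowest pair. Cenpf, another kinetochore protein, gave 9.17, 10.38, 9.03 and 10.12 against 8.80, 10.08 and 10.25, a difference of -0.03. In these 3 genes transgenic 11, transgenic 84, wildtype 28 and wildtype 29 were the upper 4 animals.

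Among spindle and chromosome proteins, Mki67, the marker of dividing cells used in pathology, gave 11.55, 12.20, 10.49 and 12.23 against 10.12, 11.97 and 12.32, a difference of 0.15 (interval -1.16 to 1.46). Top2a, which untangles sister chromosomes, gave 10.91, 11.88, 10.16 and 11.69 against 9.70, 11.45 and 11.79, a difference of 0.18 (interval -1.07 to 1.43). By these probe sets wildtype 26 and transgenic 17 stood apart below transgenic 7, the next animal, in both genes. The other Top2a probe set above the filter did not keep that order, and its difference was -0.45. There transgenic 7 was lowest, at 6.58, and wildtype 26, at 7.57, lay above transgenic 17, transgenic 84 and wildtype 28.

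Kif11, the motor that pushes spindle poles apart, gave 8.26, 9.54, 7.94 and 8.47 against 7.04, 9.18 and 9.57, a range of 2.53. Kif20a and Kif23, motors of the midzone and cytokinesis, had differences of 0.05 and -0.03. Kif23 gave 8.38, 9.04, 8.23 and 8.96 against 7.63, 9.05 and 9.37, so that wildtype 26 alone stood well apart. Prc1, which bundles midzone microtubules, gave 8.77, 9.74, 8.63 and 9.34 against 8.59, 9.46 and 9.78, a difference of -0.16. Nusap1 and Tpx2, microtubule proteins of the spindle, had differences of -0.16 and -0.10. The same pair of animals was lowest in all 6 of these genes by their most abundant probe sets. For Kif23, Prc1 and Tpx2, not every probe set above the filter had that pair lowest.

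**Figure D2:**
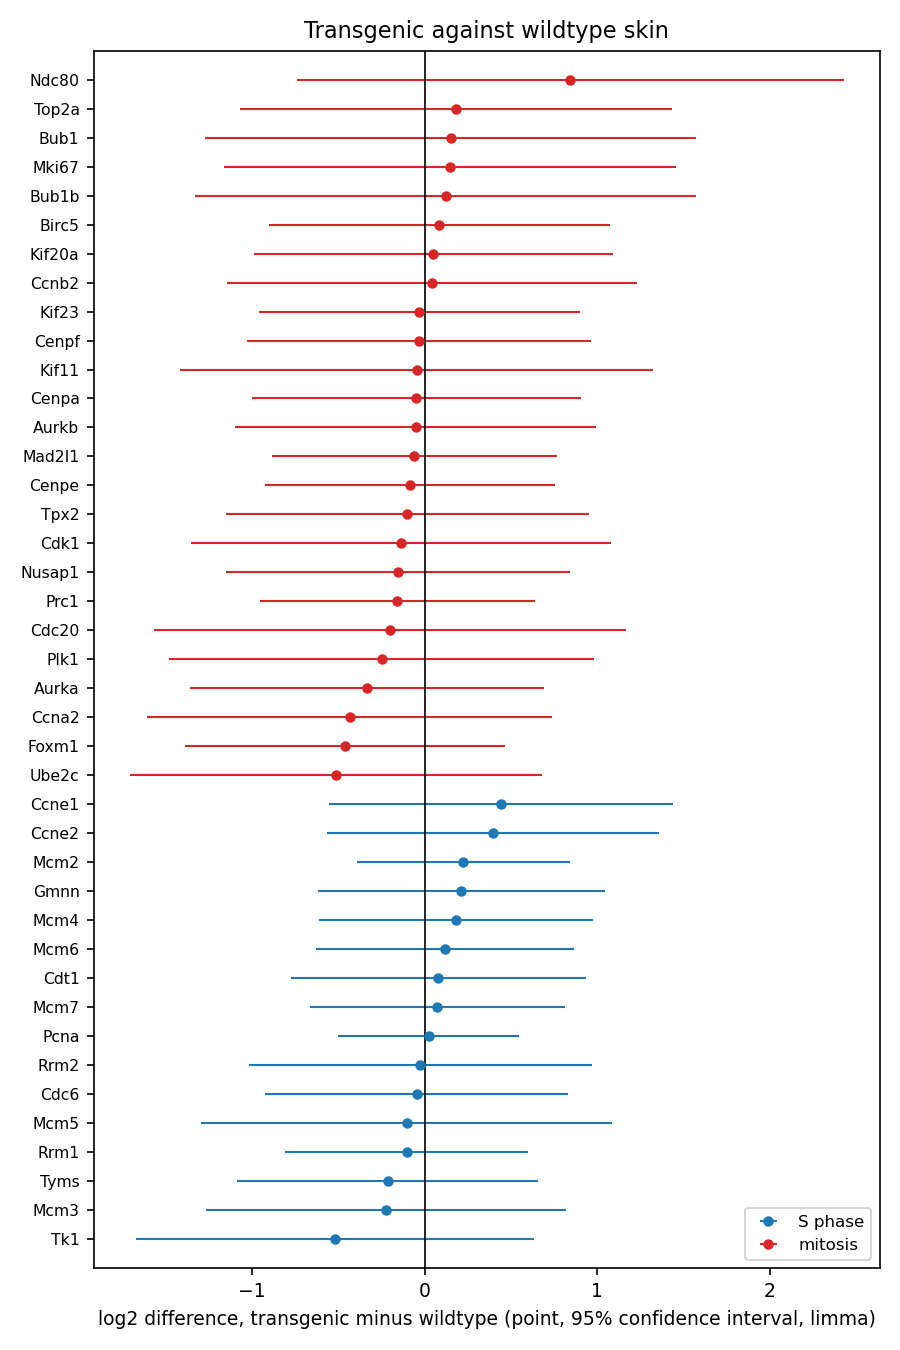
Log2 difference of each of the 41 genes, transgenic minus wildtype, with its 95% interval from limma (n = 4 and 3). All intervals cross 0, from Ndc80 at 0.84 to Tk1 at -0.52.

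The 8 genes outside the shared order were Mcm3, Mcm4, Cdc6, Rrm1, Tk1, Tyms, Foxm1 and Plk1. In 7 of them transgenic 7 was lowest or next to lowest together with wildtype 26 or transgenic 17, and in Foxm1 it was lowest with transgenic 84. Over all 41 genes the lowest animal was wildtype 26 in 28, transgenic 17 in 11 and transgenic 7 in 2. The highest was transgenic 11 in 23, wildtype 29 in 15, transgenic 84 in 2 and transgenic 7 in 1. Transgenic 7 had a place of its own: it was below transgenic 11, transgenic 84, wildtype 28 and wildtype 29 in 39 of 41 genes, including 25 of 25 mitosis genes, and above both low animals in 33. Its hair shaft keratins, at 12.42, were under those of wildtype 28 and 29 alone, so its place among the members was not its place among the keratins. Its Gapdh ratio was 13.8, and that of transgenic 84, which lay with the upper animals, was 17.2. The part of target length in the place of transgenic 7 was not tested.

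**Figure D3:**
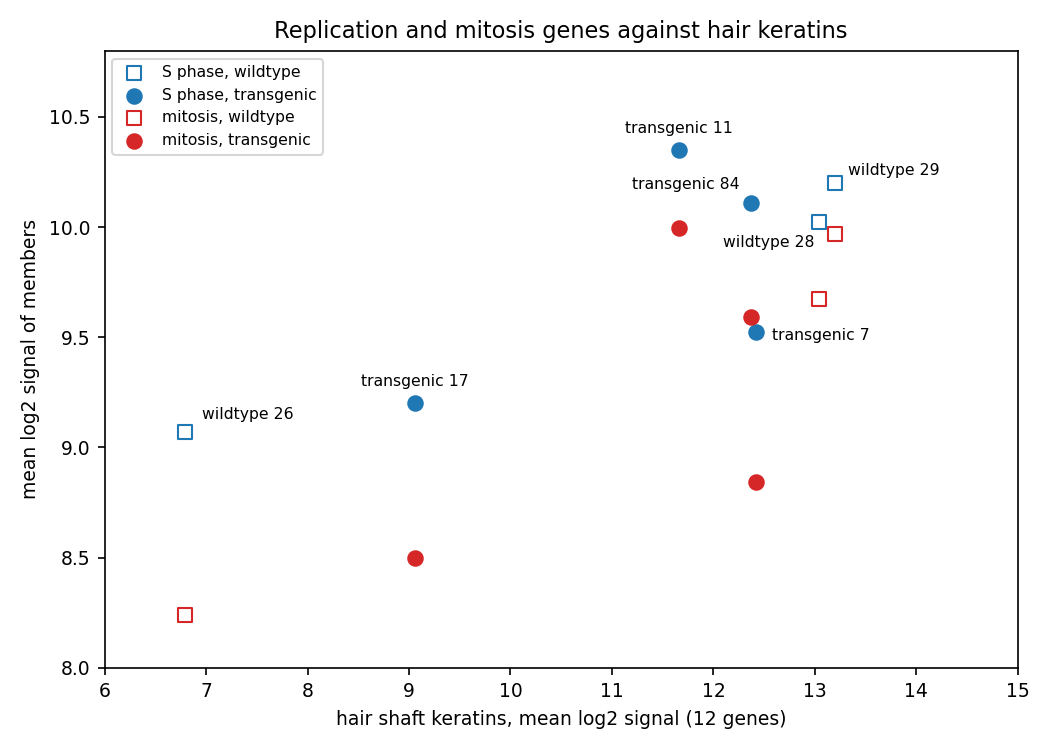
Mean log2 level of the 16 S phase and 25 mitosis genes in each animal against its mean log2 level of 12 hair shaft keratins, transgenic and wildtype animals marked apart. Wildtype 26 and transgenic 17 lie at the lower left, and transgenic 7, with keratins at 12.42, lies under the other 4 animals in both lists.

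Each animal was also set against the mean of the others of its own group, and the medians were further from 0 in mitosis than in S phase genes in all 7 animals. For wildtype 26 the median was -1.08 in S phase genes and -1.58 in mitosis genes. It was more than 1 log2 unit under in 9 of 16 S phase and 23 of 25 mitosis genes, against 5.27% of all genes. Transgenic 17 had medians of -0.78 and -0.96 and passed that mark in 4 S phase and 11 mitosis genes, against 3.68% of all genes. For transgenic 7 the medians were -0.43 and -0.49. Transgenic 11 lay above its group by 0.69 and 0.94, transgenic 84 by 0.45 and 0.60, wildtype 28 by 0.42 and 0.58, and wildtype 29 by 0.66 and 1.03.

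**Figure D4:**
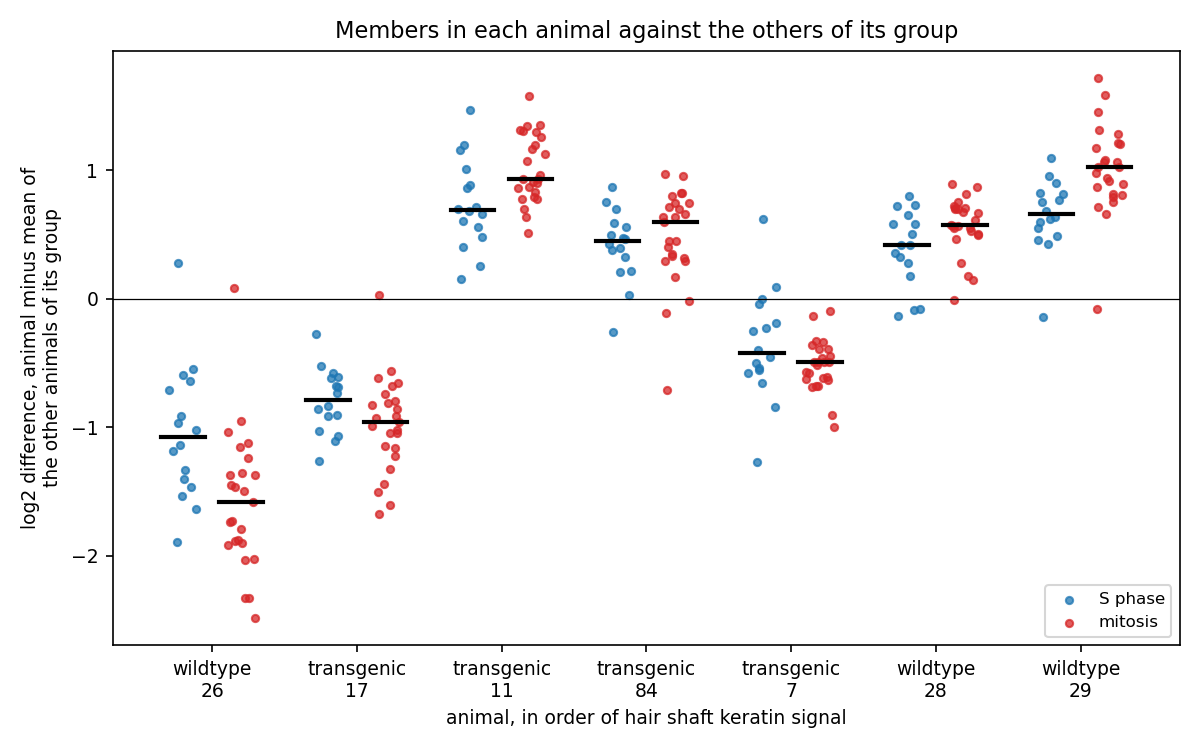
Log2 level of each gene in an animal minus the mean of the other animals of its group, for the 7 animals, with S phase and mitosis genes shown apart and their medians marked. Wildtype 26 (-1.08 and -1.58) and transgenic 17 (-0.78 and -0.96) lie furthest below 0.

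The same pattern can be read from the S phase mean minus the mitosis mean within an animal. Its size has no meaning across different probe sets, but its order over animals does. It was 0.83 in wildtype 26, 0.70 in transgenic 17 and 0.68 in transgenic 7, against 0.51 in transgenic 84, 0.35 in transgenic 11 and wildtype 28, and 0.23 in wildtype 29. Transgenic and wildtype animals were mixed in this order. The members were chosen with earlier results known, so no p is given for it.

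Other genes of the same pathways, taken from wider lists that do not contain the members, were counted in the same way. Of 45 further S phase genes tested, such as the origin recognition complex, polymerases and replication factors, 24 had wildtype 26 and transgenic 17 lowest, and of 52 further mitosis genes 30 did, beside the 13.1% of all genes given above. Their median differences between groups were 0.03 and 0.00, and limma called 0 of them after adjustment. At an unadjusted p under 0.05 there were 2, both of S phase, beside 8.998% of all genes. The groups did not overlap in either, as in 1228 of all 13559 genes. Fen1, the flap nuclease that matures Okazaki fragments, gave 10.02, 10.66, 9.88 and 10.58 against 9.45, 9.45 and 9.80, higher in every transgenic animal by a mean of 0.72 (interval 0.20 to 1.24, limma adjusted p = 0.338). Ticrr, which helps fire origins, gave 5.94, 7.49, 5.97 and 7.18 against 7.54, 7.60 and 8.15, lower in every transgenic animal with a difference of -1.12 (limma adjusted p = 0.386).

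Regulators of G1 came next. For 25 G1 cyclins, kinases, E2F factors and related genes the median difference between groups was 0.02. Of these, 10 had the same lowest pair, beside 13.1% of all genes. Mycn, a transcription factor of the Myc family, was among them, with 9.68, 10.82, 7.44 and 10.69 against 7.02, 10.30 and 10.54. Ccnd3, a D cyclin, was the 1 of the 25 at an unadjusted p under 0.05, beside 8.998% of all genes. It gave 8.08, 9.55, 9.41 and 8.74 against 9.86, 9.82 and 9.70 (difference -0.85, limma adjusted p = 0.393). The groups did not overlap in Ccnd3, as in 1228 of all 13559 genes, and its lowest values were those of transgenic 7 and 84. Of 15 inhibitors of cyclin-dependent kinases and arrest genes, 2 had the lowest pair, beside 13.1% of all genes. Their mean level lay between 10.19 and 10.41 in all 7 animals, lowest in wildtype 26 and next in transgenic 17 (10.29). Cdkn1a (p21), at 11.47, 11.74, 11.65 and 12.25 against 11.70, 11.76 and 12.35, did not set wildtype 26 or transgenic 17 apart. Cdkn2d was the 1 of these 15 at an unadjusted p under 0.05 (limma adjusted p = 0.416), beside 8.998% of all genes. It had a difference of -0.62 with overlapping groups.

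**Figure D5:**
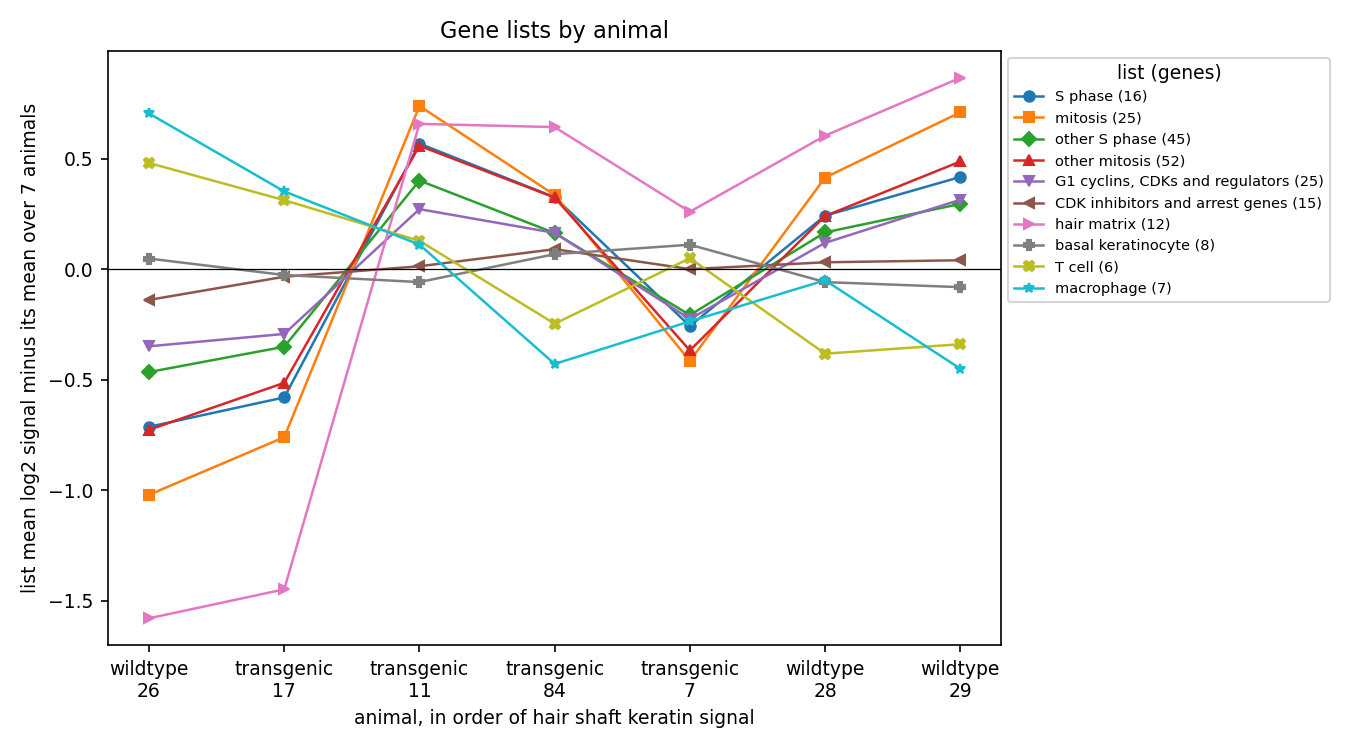
Mean log2 level per animal of the S phase and mitosis members beside other gene lists, each minus its mean over animals. Wildtype 26 and transgenic 17 are lowest in both member lists and in the other S phase and other mitosis lists. They are also lowest in the G1, arrest gene and hair matrix lists, in the arrest genes by little. They are not lowest in the basal keratinocyte, T cell or macrophage lists.

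Markers of other cell types differed over the same animals. Of 12 hair matrix genes, 12 had wildtype 26 and transgenic 17 lowest, and their mean level was 8.19 and 8.32 there, against 10.03 in transgenic 7 and 10.38 to 10.64 in the other 4. Shh, the signal made by matrix cells, gave 9.84, 11.24, 6.77 and 11.23 against 5.29, 10.46 and 10.56. Among basal keratinocyte genes, 1 of 8 had that order, beside 13.1% of all genes.

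Several immune markers were highest in that pair, as were 1851 of all 13559 genes. That order was not limited to immune genes. In wildtype 26 and transgenic 17 the mean of 5 suprabasal genes was 13.70 and 13.73, against at most 13.47 elsewhere. The mean of 5 endothelial genes was 9.02 and 8.68, against at most 8.42. The fibroblast, adipocyte and skeletal muscle means were not highest in that pair. Of 7 T cell genes measured, 6 passed the filter, and their mean was 9.11 in wildtype 26 and 8.94 in transgenic 17, against 8.24 to 8.75 elsewhere, and 4 of the 6 were highest in that pair. For 7 macrophage genes the means were 12.11 and 11.76 against 10.96 to 11.52, and 5 of 7 were highest in the pair. Not all immune genes had that order: C1qa, a complement gene, gave 7.93, 10.93, 9.73 and 7.80 against 11.90, 11.00 and 10.60. Ighm, the 1 B cell gene that passed the filter, gave 11.01, 10.70, 11.85 and 10.73 against 10.46, 9.47 and 9.04, with wildtype 26 below all 4 transgenic animals (difference 1.42, limma adjusted p = 0.301). The part of any of these cell types in the members' levels was not tested. Between groups the hair matrix means were 9.80 ± 1.001 in transgenic and 9.74 ± 1.34 in wildtype animals, and the T cell means 8.69 ± 0.23 and 8.55 ± 0.49 (SD, n = 4 and 3).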

How the data were processed

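Expression was measured on 8 arrays from 7 animals. The deposited values are linear signal intensities that the authors computed with MAS5, per the submitters' processing notes and scaled to a trimmed mean of 500.003 per array. The genome build is not given in the sources used here. Values were analysed as log2(intensity + 21.8), the pseudocount being the 20th percentile of all values, and probe sets with a mean log2 under 6.45 (the 40th percentile) were left out, which kept 27022. The group comparison used limma 3.58.1 (R 4.3.3) with group alone and empirical Bayes with a trend. Benjamini-Hochberg adjustment ran over all probe sets kept, with a threshold of 0.05. The model was also run on simulated data with independent normal errors. Those lack the order of animals that many genes share here, so the run says nothing about that setting. Promoters came from RefSeq on GRCm38.p6. The alternatives were other normalizations, pseudocounts, filters, covariates and probe set rules, and animals left out. The members and lists were chosen with earlier results of these data known. Full statistics are given for the 3 genes with the smallest p in each direction and for a fixed set, and other members by level and difference. Replicates are animals as labelled.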

Additional observations from a re-analysis of the deposited data

How the results depend on the processing

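Over 23 alternatives limma called 0 of the 41 genes, or 0 of the 38 that were fitted with the filter at the 60th percentile, and the lowest adjusted p was 0.116 (Foxm1 without transgenic 11, difference -0.86). Ndc80 alone kept its sign in every fit that held it. Foxm1 had a difference of 0.81 once the Gapdh ratio was in the model (interval 0.19 to 1.42, adjusted p = 1). The number of all probe sets called, 4, was 10 with a pseudocount of 87.2, 2 with the filter at the 60th percentile, 11 with sex, 0 with the Gapdh ratio and 37 with the hair keratin level as a covariate, 9 with the second array of wildtype 29, and 0 with probe sets averaged by gene. Without transgenic 17 and wildtype 26, chosen after seeing the data, it was 13. Leaving out 1 animal gave 0 (wildtype 28) to 280 (transgenic 11). The cause was not tested. The count of 33 genes with wildtype 26 and transgenic 17 lowest was 36 with quantile or cyclic loess normalization and 31 with probe sets averaged, all 3 chosen after seeing the data. The number of arrays and the signal over background limit the precision.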
